A study of Mus musculus with 7 samples.

Results

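Of 21700 protein-coding genes in the deposited mouse annotation, 209 (0.963%, 95% Wilson interval 0.842 to 1.10%) had a 3' end with exonic sequence in common with a second gene on the same strand. They were chosen by that overlap. For each gene the transcript with the most exonic bases was taken, the 500 exonic bases before its end formed the window, and the gene was kept where 1 or more of these bases fell in an exon of a different gene identifier, on the same chromosome and strand. The rule found 213 genes (0.982%), and 4 of them were left out by name: Hist2h2bb, Hist1h1e, Olfr290 and Olfr560. The overlap itself is therefore a description of the choice and is given without a test.

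The samples were stromal cells of the intestine of 8 to 12 week old C57Bl6 mice, sorted as positive for a Rspo3-GFP transgene and negative for Epcam and CD45, and sequenced from the 3' end in droplets. Small intestine gave 2 untreated samples, 2 unirradiated controls and 2 samples after 12 Gy, and colon gave 1 untreated sample. Whether replicate samples are separate animals is not stated in the labels. Expression values were not analysed here, so the sorted cell types could not be checked against their markers, no gene is called higher or lower in any group, and all values below are properties of gene models.

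A 3' library reads transcripts close to their polyadenylation site, so the last exons largely decide which gene a molecule is counted for. Some loci use many first exons that are spliced to one common set of last exons, as the UDP-glucuronosyltransferase 1A and clustered protocadherin genes do. Other loci join neighbouring genes by readthrough, or hold a short upstream open reading frame on the transcript of a longer protein. A polyadenylation signal, usually AATAAA or ATTAAA, lies shortly before the cleavage site of most mammalian transcripts.

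The sequences that show these arrangements come from GENCODE M21 transcripts on GRCm38. They were matched to the deposited models by identifier, version and exon coordinates, which held for 203 of the 209 members. The first set shows the splice junction of the 7 Ugt1a members, all on the plus strand of chromosome 1. The last 30 bases of each gene's own exon are in lower case, and the first 30 bases of the exon common to the cluster are in capitals.
Ugt1a1: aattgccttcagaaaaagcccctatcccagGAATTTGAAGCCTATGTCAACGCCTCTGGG
Ugt1a2: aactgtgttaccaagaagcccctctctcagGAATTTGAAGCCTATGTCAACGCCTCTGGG
Ugt1a5: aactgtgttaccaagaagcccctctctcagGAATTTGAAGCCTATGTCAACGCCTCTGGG
Ugt1a6b: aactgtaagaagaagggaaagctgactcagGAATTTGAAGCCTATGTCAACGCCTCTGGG
Ugt1a8: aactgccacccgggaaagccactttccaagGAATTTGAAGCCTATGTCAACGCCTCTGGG
Ugt1a9: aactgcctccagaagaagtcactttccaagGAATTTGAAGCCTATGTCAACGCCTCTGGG
Ugt1a10: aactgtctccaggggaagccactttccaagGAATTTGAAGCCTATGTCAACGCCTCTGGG
The capitals are 1 sequence in all 7 genes, because they are the same bases of the genome. The lower-case bases are 6 different sequences. Ugt1a2 and Ugt1a5 were identical over their 30 bases, Ugt1a8 and Ugt1a10 shared 26 of 30, and Ugt1a6b and Ugt1a8 shared 12 of 30.

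The second set shows transcripts that carry a complete coding sequence of each gene of a pair, which need not be the gene's longest one. The upstream sequence has 121 codons in Chtf8, 41 in Ak6 and 99 in Asdurf. Capitals mark the stop codon of the upstream and the start codon of the downstream coding sequence.
Chtf8 and Gm50241: tccccaagaaagtATGAaagaaccccggat
Ak6 and Taf9: gaagtcTGAtcagcggatatcATGgagtct
Asdurf and Asnsd1: tcaaccTGActtcacataaccATGtgtggc
In the first of these the codons overlap, so that the start codon of Gm50241 and the stop codon of Chtf8 take up 4 bases together (chr8:106886289-106886318, minus strand). In the other pairs 12 bases lie between the codons. The Ak6 and Taf9 stretch spans an intron on the plus strand of chromosome 13, and that of Asdurf and Asnsd1 is unspliced (chr1:53348458-53348487, minus strand).

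The third set shows the mitochondrial overlaps on the plus strand of chromosome M, with the bases shared with the next gene in capitals.
mt-Atp8 into mt-Atp6: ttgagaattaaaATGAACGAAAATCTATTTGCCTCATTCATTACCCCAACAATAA
mt-Nd4l into mt-Nd4: caacctactacaATGCTAA
Both capital runs start with the ATG of the next gene and end with the stop codon of the gene before it (chrM:7915-7969 and chrM:10155-10173).

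The fourth set gives the last 30 bases of members that end at or next to the end of their partner, with the polyadenylation hexamer in capitals.
Gemin4: ttaAATAAAattctcttgggtttaatctta
Glod4: ttaAATAAAattctcttgggtttaatctta
Atrip: tatgatgAATAAAgacttccatagcactga
Trex1: tatgatgAATAAAgacttccatagcactga
Ramp2: tgatttatgatATTAAAatctctactccca
Vps25: ctgatttatgatATTAAAatctctactccc
Ugt1a1: agaacttatcAATAAAttcatataaattgt
Ugt1a10: atcAATAAAttcatataaattgtatcacta
Gemin4 and Glod4 ended at the same base, as did Atrip and Trex1, whereas the chosen transcript of Ramp2 ended 1 base after that of Vps25. Ugt1a1 ended 7 bases before Ugt1a10, and the same AATAAA of the genome stood before both ends.

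The members fell into 129 groups of genes joined by shared 3' ends. A cluster of 3 genes or more formed 12 of the groups and held 63 members, and pairs formed 117 groups and held 146 members. In 29 pairs both genes were members, and in 88 pairs only one was. In 13 of those 88 the other gene was long non-coding, which the rule leaves out. The groups held 307 genes in all, of which 98 were not members (84 protein-coding and 14 long non-coding genes). Of the clusters, 8 had 3 genes and 4 had more: the gamma protocadherins, the alpha protocadherins, the Ugt1a genes and the Zc3h11a locus.

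The whole window was shared in 118 members, with at least one partner that covered all of it alone, and part of it in 91. Over all protein-coding genes a wholly shared 3' end was found in 0.548%, a background set by the same rule from which nothing is read. The median member shared all 500 bases, and 12 members shared fewer than 50 bases. Without the Ugt1a genes and the alpha and gamma protocadherins the median of the other 167 members was 458 bases. The shared window did not always mean a shared end. Of the members, 62 ended at exactly the same base as a partner, and 85 ended within 10 bases of a partner's end. Without the Ugt1a genes and the alpha and gamma protocadherins, 22 of 167 members ended at the same base. Over all protein-coding genes the same 62 make up 0.286%. That is again a background set by the rule, since a common last base lies in the window.

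**Figure D1:**
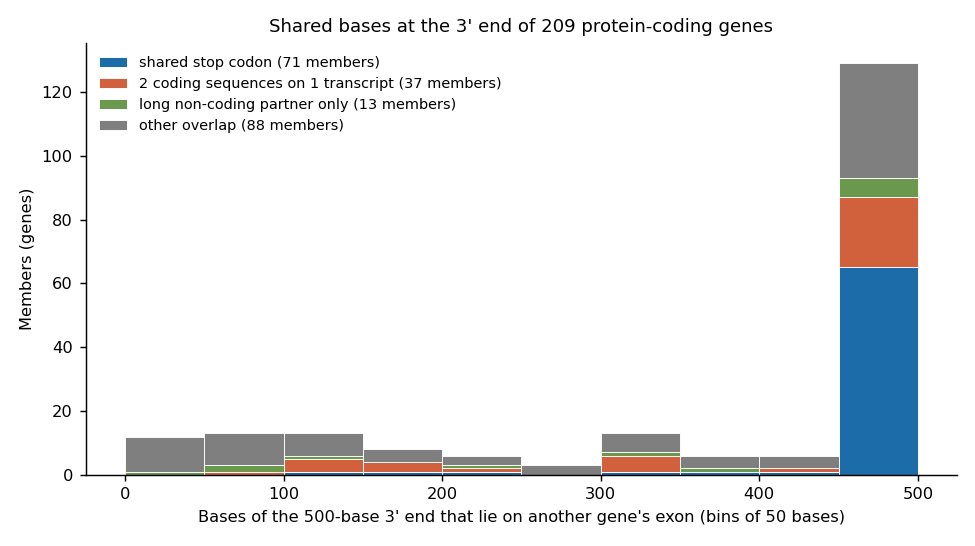
Number of members (y axis) by the bases of their 3' end that lay on another gene's exon (x axis, bins of 50 bases), stacked by kind of sharing. The bin of 450 bases or more holds 129 of the 209 members, 12 members lie under 50 bases, and the 17 members with a transcript shorter than the window cannot reach 500.

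Each member was put in one kind. Stop codons read in the same frame by a partner came first (71 members). Members with a coding sequence that stood with one of a partner on 1 transcript came next (37). Then came members with only a long non-coding partner (13), and 88 members had another overlap. Counted against any same-strand gene that overlaps anywhere, and not only at the 3' end, 75 members shared a stop codon, and 84 of all protein-coding genes did (0.387%). By the same wider count 88 members had coding bases read in the same frame by another gene, and 111 protein-coding genes had them in total (0.512%). With 3' end partners alone, 82 members had coding bases in the same frame, and in 13 members every shared coding base was read in another frame only.

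The Ugt1a genes had a common 3' end and separate first exons. They encode UDP-glucuronosyltransferases, which attach glucuronic acid to bilirubin, steroids and drugs, and Ugt1a1 is the bilirubin-conjugating enzyme. The cluster lies on chromosome 1 from 88055388 to 88220002. The first exons of the members started between 8043 bases (Ugt1a1) and 164591 bases (Ugt1a10) before the last end of the cluster. All 7 members then used exons of 132, 88 and 220 bases and a last exon of 871 to 878 bases. Each had 735 coding bases that a partner read in the same frame, and 859 to 926 transcript bases of its own. The own bases of Ugt1a1 were its first exon of 913 bases, and Ugt1a6b had the fewest, 859. None of the 7 had a placement of a 90-base read of its own in the last 500 bases of the chosen transcript. None had another transcript with an unshared 3' end. Among the 2 other transcripts of Ugt1a10 a placement of its own was found, and in the other 6 members no annotated transcript had one.

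Of the 9 Ugt1a genes, Ugt1a6a and Ugt1a7c were not members. The longest transcript of Ugt1a7c ran 998 bases beyond the end of Ugt1a10 with a last exon of 1876 bases. Its first exons, of 127 and 859 bases, lay at the positions of an exon of Ugt1a6b and one of Ugt1a6a. The longest transcript of Ugt1a6a was a retained intron model with a last exon of 2360 bases that stopped 2599 bases before the last end of the cluster. Its other 3 transcripts shared their 3' ends with the cluster. With the longest transcript of coding type Ugt1a6a was a member. Ugt1a10 carries a readthrough tag in the annotation.

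**Figure D2:**
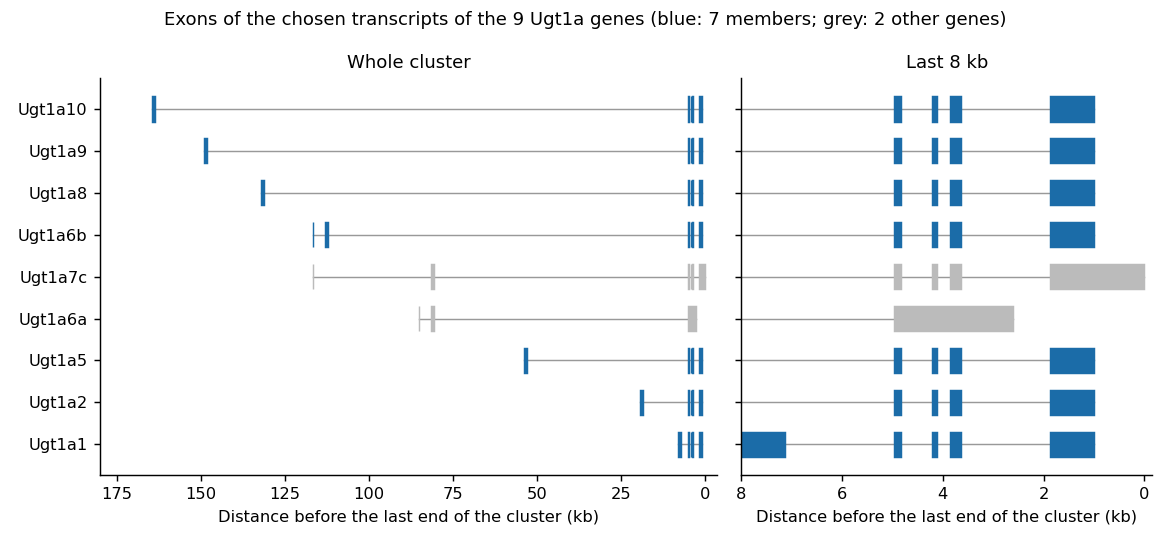
Exons (boxes) and introns (lines) of the chosen transcript of each Ugt1a gene, drawn by distance in kb before the last end of the cluster, for the whole cluster (left) and its last 8 kb (right). The 7 members in blue differ in their first exons and share the last ones, whereas the grey Ugt1a7c runs past their ends and the grey Ugt1a6a stops before them.

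The clustered protocadherins, cell adhesion proteins best known from neurons, made up 36 of the 37 members on chromosome 18. All 14 alpha genes were members, and each shared all 500 bases, its end with another gene of the cluster, and 456 coding bases in frame. Their own transcript bases ran from 2346 (Pcdha5) to 3028 (Pcdhac2). All 21 gamma genes were members, and 20 of them shared all 500 bases and 372 coding bases in frame. The exception was Pcdhgc5, whose longest transcript was a retained intron model with 410 shared bases and 90 read placements of its own. Own bases of the gamma genes ran from 1570 (Pcdhga4) to 4465 (Pcdhgc5). The long non-coding Gm38182 was the remaining gene of that cluster. Of the 22 beta genes, a tandem array without a common last exon, only Pcdhb21 was a member, with 455 bases on Pcdhb22.

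The families differed in whether an unshared end was annotated elsewhere. Of the gamma genes 10 had another transcript with an unshared 3' end, among them Pcdhga1, Pcdhga4 and Pcdhga7 with one of coding type. Of the alpha genes 2 had such a transcript, one of the pair called Pcdha11 and Pcdha4, in both cases not of coding type. Chromosome 18 had the largest share of members of any autosome, 7.30% of its 507 protein-coding genes.

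Outside these clusters, Ugt2a1 and Ugt2a2 were the 2 members among 10 Ugt2 genes. They ended at the same base, shared 866 coding bases in frame, and kept 799 and 768 transcript bases of their own. Both Ugt3 genes were outside. Of 397 genes named Zfp, for zinc finger protein, Zfp708 alone was a member. It ended 1 base from its readthrough partner Gm28557 and kept no transcript base of its own.

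Other shared stop codons came from models in which the coding sequence of one gene was repeated under a second identifier. One was Cers1, a ceramide synthase, whose longest transcript was annotated with the coding sequence of Gdf1, a growth factor of the TGF-beta family. All 1071 coding bases of both models were the same bases in the same frame, 495 of 500 bases of Cers1 and all 500 of Gdf1 were shared, and Gdf1 had no transcript base of its own. Yy2, a zinc finger transcription factor, shared its 1134 coding bases with Mbtps2, a protease that activates SREBP. Rsc1a1 shared 1746 coding bases with Ddi2, and Evi2b 1332 with Evi2. Taf9, a subunit of TFIID, shared 792 coding bases with Ak6, an adenylate kinase, and ended 1 base from the end of an Ak6 transcript. Mapkapk5, a stress kinase, shared 1413 of its 1419 coding bases with Adam1a.

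In 11 groups, with 17 members, the partners carried one symbol under separate gene identifiers: Arhgef4, Ddit3, Dpep2, Fam220a, Jakmip1, Nnt, Pcdha11, Ptp4a1, Sept2, St6galnac2 and Zc3h11a. The copies of Nnt, the mitochondrial nicotinamide nucleotide transhydrogenase, had 17 exons each and 2505 shared coding bases in frame, and ended 80 bases apart. One had 80 read placements of its own and the other 0. The copies of Fam220a both held a coding sequence of 780 bases. The Sept2 member, a septin of the cytoskeleton, shared all 1083 coding bases with its namesake. For Ddit3, Arhgef4 and one Jakmip1 the second identifier was a short model of 105, 171 and 138 exonic bases. Of the 17 members, 13 had no read placement of their own.

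A readthrough tag, by which the annotation marks transcripts that join neighbouring genes, was carried by 18 members (8.61%, interval 5.52 to 13.2%) and by 0.203% of all protein-coding genes. The rule did not use the tag, and the shares are given without a test. In all, 23 groups held a tagged gene, 16 pairs and 7 clusters, with 43 members. The tag stood on one gene of the Ugt1a cluster and on 2 genes of the Zc3h11a locus. There Zbed6, a transcription factor gene of 1 exon that lies within an intron of Zc3h11a, shared all its 2940 coding bases with the joining gene Gm38394. The joining gene held both coding sequences, and both genes called Zc3h11a had 2376 coding bases in frame with a partner.

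The other tagged clusters had 3 genes. In one, Gm42742 joined Pagr1a and Prrt2, and all 759 coding bases of Pagr1a were shared. In another, Gm49322 joined Adat3, a tRNA deaminase subunit with 1047 shared coding bases, to Scamp4, which ended at the base of one of its transcripts. Snurf and Snrpn, an imprinted locus of the Prader-Willi region, stood with Gm38393. Snurf shared all 216 bases of its model and Snrpn only 43. Hyal1, a hyaluronidase, shared 457 bases and formed a cluster with Hyal3 and Naa80, which were not members. The last cluster held 1810009A15Rik, Gm49403 and Lbhd1, with 429 and 492 shared bases in the first pair of genes and Lbhd1 outside.

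Tagged pairs ran from 4 to 500 shared bases. Kiss1, which encodes kisspeptin, shared 378 coding bases in frame with Gm28040 and kept 179 read placements of its own. Arfip1 shared 756 of its 1023 coding bases with Gm37240, and Commd5 shared 488 bases with Gm49527. The Dpep2 genes shared 320 and 500 bases. A single member came from each of 11 tagged pairs: B4galt2 with Ccdc24, Tmem260 with Gm49519, Snhg4 with Matr3, Gm42791 with Katnal1, Evi2b with Evi2, 4632433K11Rik with Zfp865 (500 bases in each of these 6), Gm29394 with 9130401M01Rik (129), Gm45194 with 4933403O08Rik (97), Gm49380 with Gm39325 (61), Gm45716 with Mmd (15) and Esp6 with Gm44501 (4). Snhg4 is known as a small nucleolar RNA host gene. Here its longest model was of coding type, and its 1209 coding bases were all read in frame by Matr3, a nuclear matrix protein.

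A different arrangement was 2 coding sequences on 1 transcript. Any complete coding sequence of a gene counted, also one of a transcript that was not chosen. It was found in 34 pairs of genes. In these pairs, 48 members stood with a partner at their own 3' end. Of the 48, 37 shared no stop codon and so belong to the kind named after this arrangement. Snrpn, in the pair with Snurf, is not among the 48, since Snurf is not a partner at its 3' end. The stretch between the coding sequences ran from an overlap of 38 bases to 2539 bases, with a median of 385. In 16 pairs the upstream sequence had 100 codons or fewer, and there the median stretch was 149.5 bases. In the 18 pairs with a longer upstream sequence it was 1082.5 bases. Gm38394 enters these 18 with each gene called Zc3h11a, both times with 1510 bases. Both sequences stood in the same frame of the transcript in 9 pairs and in different frames in 25.

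Several of the 16 short upstream models are described here. Asdurf, with 99 codons, stood 12 bases before Asnsd1. A model of 34 codons stood 26 bases before Ddit3, the stress-induced transcription factor CHOP. AC140267.1, with 70 codons, stood 113 bases before Mief1, a regulator of mitochondrial fission. Pet117, a factor for assembly of cytochrome oxidase, had 80 codons and stood 259 bases before the histone acetyltransferase Kat14. AL731706.1 and AL731706.2, with 50 and 59 codons, both stood before Mkks, the chaperonin-like protein of McKusick-Kaufman syndrome. AC132407.1 (61 codons) stood before the growth factor Nrg1, AC166256.1 (42) before Tbpl1, and AL607142.1 (25) before Hivep3. The model of AL607142.1 has 78 exonic bases and is too short to hold a 90-base read.

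Not all pairs with a longer upstream sequence were made of separate neighbouring genes. In Jakmip1 with Gm1043, 19 of the 20 exons of the chosen Jakmip1 transcript were also exons of Gm1043. Aars, the alanyl-tRNA synthetase, and Exosc6, a subunit of the RNA exosome, ended at the same base with 1166 bases between their coding sequences. C1qtnf5 ended 1 base from the end of an Mfrp transcript, and the chosen Mfrp transcript ended at the same base as a C1qtnf5 transcript. Between the coding sequences of Mfrp and C1qtnf5 lay 1290 bases. Sept5, a septin, and Gp1bb, a subunit of the platelet receptor for von Willebrand factor, had 1373 bases between them, and Gp1bb kept 183 read placements of its own. Flad1, the FAD synthase, lay 526 bases before Lenep and shared all 500 bases with it. Zgpat lay 904 bases before Lime1, Wdr89 999 bases before AC124742.1, and B4galt2, a galactosyltransferase, 1706 bases before Ccdc24. In Ddi2 and Rsc1a1 the stretch was 77 bases. In Mbtps2 and Yy2 it was 325, with an upstream sequence of 220 codons.

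**Figure D3:**
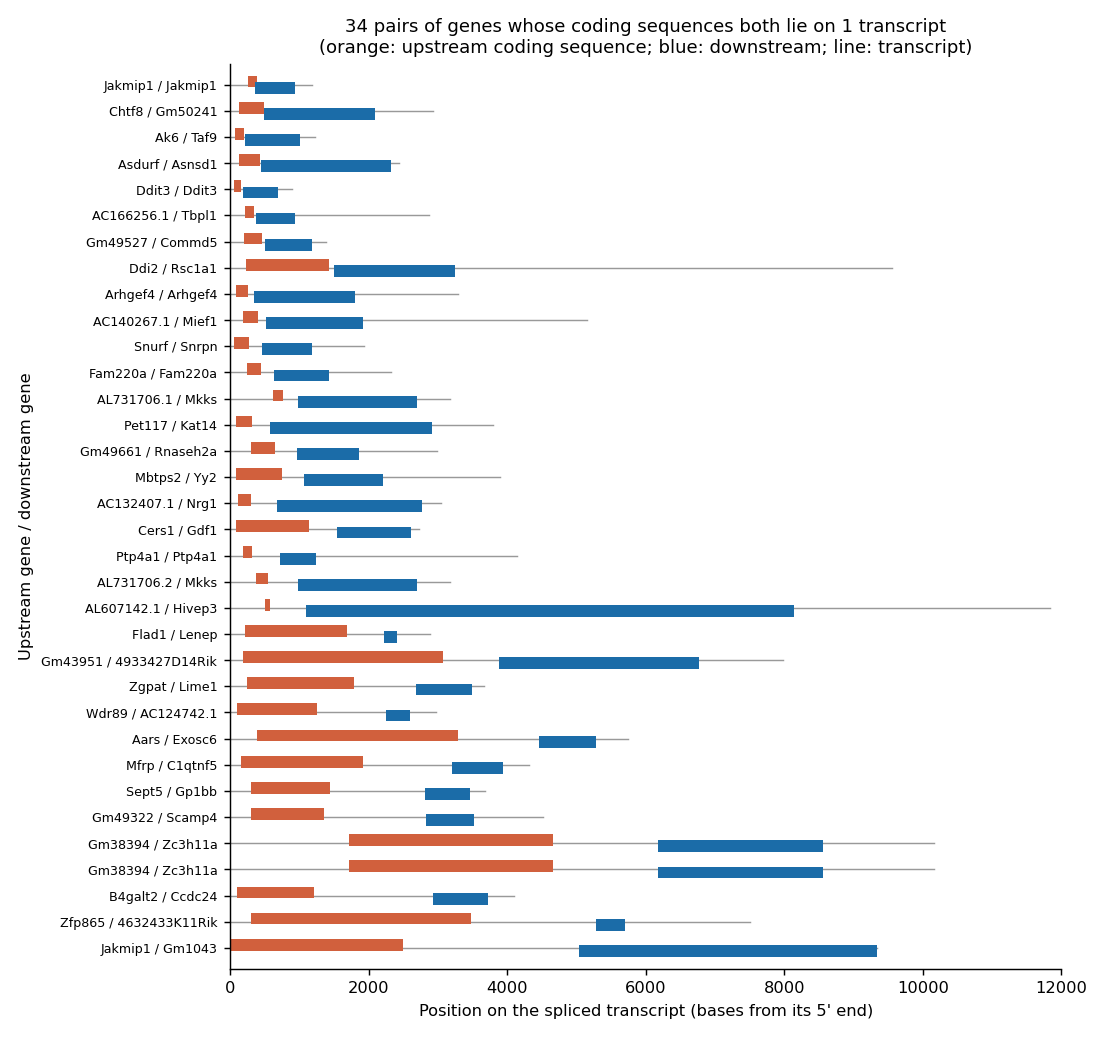
The 34 pairs of genes (y axis, upstream gene first) with a complete coding sequence of each gene on 1 spliced transcript. Positions are bases from its 5' end (x axis), with the upstream coding sequence in orange, the downstream one in blue and the transcript as a line. Pairs are ordered by the stretch between both sequences, from an overlap of 38 bases at the top to 2539 bases at the bottom, and the short upstream sequences lie in the upper part.

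A transcript that ended at its own stop codon was found in 20 members (9.57%, interval 6.28 to 14.3%) and in 643 of all protein-coding genes (2.96%, interval 2.75 to 3.20%). Of the 17 members with a transcript shorter than 500 bases, 16 ended that way, and these 17 had 78 to 439 exonic bases. Such a model holds no base after the stop codon, so its window ends in coding sequence.

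The other overlaps joined 88 members with a partner in whose exons they ended or began. In 53 of them the member's gene started upstream of the partner's gene. The chosen transcript of these members ended before the last annotated end of the partner's gene. The distance between both starts was not limited, and Nhlrc4 started 25 bases before Pigq and Churc1 51 bases before Fntb. This order alone therefore does not show a 3' end that runs into a gene further downstream. Ramp2, which carries the receptor for adrenomedullin to the membrane and is needed in lymphatic and blood endothelium, shared all 500 bases with Vps25, a subunit of ESCRT-II. The chosen transcript of Ramp2 was of the nonsense-mediated decay type, and all 7 other transcripts of Ramp2 had an unshared 3' end. Vps25 had 6 other transcripts, none of them with an unshared 3' end. With the longest transcript of coding type Ramp2 was not a member. Gemin4, of the SMN complex, and Glod4 also shared all 500 bases, and 1 of 1 and 7 of 8 other transcripts were unshared. Atrip, the partner of the checkpoint kinase ATR, ended with Trex1, a DNA exonuclease. Trex1 had no transcript base of its own, against 3101 bases of Atrip, and 6 of the 8 other Atrip transcripts were unshared.

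Several members of this kind were wholly covered in the last 500 bases although their partner ended far away. Distance was taken to the nearest end of any annotated transcript of the partner, so the partner's gene can reach further. It was 18036 bases for BC024139 and Eppk1, 10760 for March2 and Hnrnpm, 10270 for Izumo1 and Rasip1, and 5274 for Zmym6 and Tmem35b. Tmem269 with AU022252 (1485), Phospho1 with Zfp652 (2975), Vps51 with Tm7sf2 (679) and Dph1 with Ovca2 (158) were closer. Mapk8ip3 ended 1 base from the end of an Eme2 transcript, Mrps34 18 bases from one of Nme3, and Pdf 225 bases from one of Cog8. Mapk8ip3 had 20 other transcripts, all of them unshared.

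Partial overlaps made up the rest. Large ones of 400 bases or more, beside that of Pcdhb21, included those of AC151602.1 with Lhb (487), Nme3 with Mrps34 (480), Bloc1s1 with Rdh5 (463), Lhb with AC151602.1 (457), Ell3 with Serinc4 (451), Coro1b with Ptprcap (430) and Insl3 with Jak3 (404). Lhb encodes the beta subunit of luteinizing hormone. Intermediate ones were those of St6galnac2 with its namesake (383), Raet1d with Raet1e (363), Cadm3 with Ackr1 (361), Phpt1 with Mamdc4 (360), Nrn1l with Edc4 (341), Cela2a with Ctrc (305), Hypk with Serf2 (303), Cog8 with Pdf (269), Cmtm1 with Cmtm2a (259), Gpsm3 with Pbx2 (227), Churc1 with Fntb (207) and Usf1 with Tstd1 (200). Ackr1, an atypical chemokine receptor of venules and red cells, was not a member, since the 3' end of its longest transcript was unshared. With the transcript ending farthest downstream Ackr1 was a member.

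Clec1b shared 184 bases with Clec9a, both genes of C-type lectin receptors. The chosen Clec1b model was a retained intron, and all 3 other transcripts were unshared. Pfdn5 and Myg1 shared 165 bases, Ahctf1 and Kif28 155, Mettl17 and Slc39a2 151, Nhlrc4 and Pigq 130, Mafg and Sirt7 124, Entpd2 and Npdc1 119, and AC141477.1 and Pcnt 115. Rnf31 and Irf9 shared 100, as did Tmsb15b1 and Tmsb15b2. Among pairs of named genes, the smallest outside the 5 listed below were those of Pear1 with Lrrc71 (85), Wdr90 with Rhot2 (79), Cmc4 with Mtcp1 (59), Jak3 with Insl3 (53), Tstd1 with Usf1 (52), Tmc4 with Leng1 (51), Ccdc103 with Fam187a (48) and Cenpb with Spef1 (20). In each of these 8 all 411 read placements of the window were the member's own.

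In 13 members each partner was a long non-coding gene. Rps6ka4, a stress-activated kinase, shared all 500 bases with CAAA01066123.1 and ended 1 base from it, and C2cd6 shared 493 with AC169382.1. Rnf149, Tmem260 and Gm5624 were also fully covered. Of the 13, 11 had another transcript with an unshared 3' end, 10 of them one of coding type. In all, 29 members, some of these 13 among them, stood in 24 pairs that held a Gm or Rik gene and no tag, with 24 to 500 shared bases and a median of 339. Over all kinds, 31 members had Gm or Rik names, with 15 to 500 shared bases, and 14 of them had no read placement of their own.

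Of the 13 protein-coding genes on chromosome M, 3 were members. mt-Atp8, a subunit of ATP synthase, shared 43 of its 204 bases with mt-Atp6, fewer than a read is long, and kept all 115 read placements. mt-Nd4l, a subunit of complex I, shared 7 of 297 bases with mt-Nd4 and kept all 208. mt-Atp6 shared 1 base with mt-Co3 and kept all 411. These genes have 1 exon and lie on one long primary transcript, and the coding bases that mt-Atp8 and mt-Nd4l shared were read in another frame by the next gene.

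The least shared members just inside the rule were mt-Atp6 (1 base), Esp6 (4), mt-Nd4l (7), Manf (14, with Rbm15b) and Gm45716 (15). Just outside stood Drc1, 3 bases from an exon of Gm43755, Rnpc3, 5 bases from Amy1, Zbtb22, 6 from Tapbp, Tm9sf1, 7 from Ipo4, and Pcdhb17, 10 from Pcdhb18. A gap of 50 bases or fewer was found for 22 genes outside the rule.

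Placements of a read were then counted to describe what the overlap left to each gene. A 90-base read fits a full window at 411 positions, and a placement was shared if a transcript of a partner held the same bases in the same splicing. No placement of their own was left to 117 members, 91 had 1 or more, and 23 of these had all of them. Of all protein-coding genes 0.544% had no own placement, again a count fixed by the rule. The median number of own placements was 0 over all members, 131.5 for the other overlaps and 137 for members with only long non-coding partners. Of the 117, 41 had another transcript with an unshared 3' end, and 76 did not. In 61 members no annotated transcript of the gene had a placement of its own. Without the Ugt1a genes and the alpha and gamma protocadherins, 76 of 167 members had no own placement. Of these 76, 47 had no other transcript with an unshared 3' end.

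**Figure D4:**
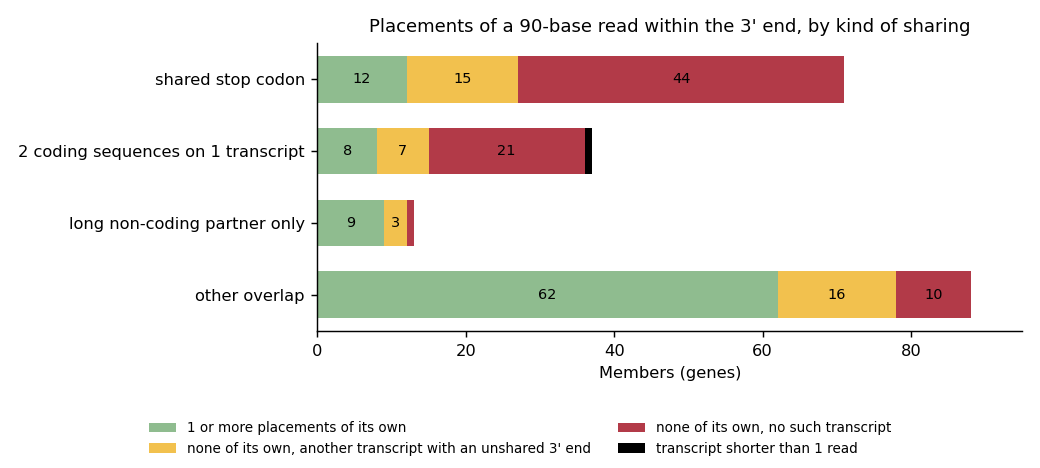
Members (x axis) of each kind of sharing (y axis), split by whether a 90-base read had a placement of its own in the last 500 bases of the chosen transcript. Of the 71 members with a shared stop codon 44 had none and no other transcript with an unshared 3' end. Of these 44, 7 are Ugt1a genes, 12 alpha and 10 gamma protocadherins, which share their ends within each cluster and are not independent cases. The count was 10 of the 88 with another overlap, and the black box is the single member shorter than a read.

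In other properties the members were described beside all protein-coding genes, without a test. A single exon was found in 20 members (9.57%), against 8.47% of all. The chosen transcript was of coding type in 180 members (86.1%, interval 80.8 to 90.2%), against 85.4%. Of the other 29 models, 16 were retained introns, 12 were of the nonsense-mediated decay type and 1 was of a long non-coding type. The median member had 4 exons, 2536 exonic bases and 3 transcripts, and the median protein-coding gene 6 exons, 2902.5 exonic bases and 4 transcripts. Names that are clone accessions were carried by 9 members (4.31%) and by 0.355% of all.

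The hexamer AATAAA was searched in the last 50 bases of the chosen transcript, on the transcript strand only. It was found in 114 of 203 members with a sequence (56.2%) and in 12157 of 21390 protein-coding genes (56.8%). By kind, it was found in 57 of 71 members with a shared stop codon (80.3%), 9 of 12 with only long non-coding partners (75.0%), 39 of 87 with another overlap (44.8%) and 9 of 33 with 2 coding sequences on 1 transcript (27.3%). Of the members that ended at the same base as a partner, 54 of 61 held it (88.5%). With AATAAA or ATTAAA, which a window can hold together, the share was 67.0% of members and 69.4% of all. A match is a description of the letters and not of a used site. Members of one cluster read the same bases at their ends, so these counts do not come from independent sequences.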

How the data were processed

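No expression table was used. The deposited file is the gene annotation, GENCODE M23 (Ensembl 98) for GRCm38 per the file headers, to which the authors added 5 records of an EGFP contig. Its values are 1-based starts and ends of exons and coding sequences in bases, with no score in any of the 1780460 records. The submitters' processing notes name Seurat 4.0.3, Cell Ranger 6.0.1 and R 4.1.0 for the libraries. The rule for assigning reads to genes was not given in the sources used here.

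The members, gene families and naming rule were chosen with earlier results of these data known. Clusters of 3 genes or more, groups with a readthrough tag and pairs of genes with symbols were named one by one, and members in other pairs with Gm or Rik names were given by count and range. A few named members are not reported here one by one and stand in the counts only. Overlaps, frames and placements of 90-base reads were computed from coordinates with pandas 2.3.3, SciPy 1.17.1 and NumPy 2.4.6 under Python 3.11.15, and tested on simulated data. Sequences came from GENCODE M21 transcripts of the same build. Intervals are 95% Wilson intervals that cover counting error only, since gene models have no replicates. The search for 2 coding sequences on 1 transcript and the count of transcripts ending at a stop codon were added after the annotation was seen. Window, overlap, partner, transcript, strand and read length were varied.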

Additional observations from a re-analysis of the deposited data

How the results depend on the processing

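Of 51 alternative counts, 44 lay within 1.5 times the reported count and 7 beyond. With every base of the window required, 118 members in 65 groups were left, 26 of them in groups with a readthrough tag. With overlaps on either strand counted there were 1787 members in 1206 groups, and 519 members had a wholly shared window. Leaving out readthrough-tagged genes left 0 members in tagged groups by construction and 173 members in all. The last 300 bases gave 195 members and the last 1000 gave 257. The longest transcript of coding type gave 206 members, of which 197 were among the 209. The 12 lost included Ramp2, Atrip, Clec1b and Mapk8ip3, and the 9 gained included Ugt1a6a, Hsp90b1 and Serf2. The transcript ending farthest downstream gave 245, of which 205 were among the 209. In 6 settings together (last 300 bases, 50 bases or more, protein-coding partners, no readthrough genes, and both other transcript choices), a set compared after the counts were seen, 138 members remained. Of these 59 shared a stop codon and 29 had 2 coding sequences on 1 transcript. Reads of 50 and 150 bases left 118 and 114 members without a placement of their own. A model shorter than the read holds no placement and was not counted. The wholly shared models of AL607142.1 (78 bases), Ddit3 (105), AC166256.1 (129) and one Jakmip1 (138) were shorter than 150 bases. The lower count with longer reads came from such short models, and does not show that a member gained a placement of its own. Read length therefore could not test the 118 wholly shared windows. No paired analysis was possible because the annotation holds no values per sample. Read depth was not analysed here.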
